A study of Mus musculus with 6 samples.

Results

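The integrin and laminin subunit genes were examined in the embryonic mouse cardiac outflow tract (OFT), the vessel-forming end of the heart that gives rise to the aorta and the pulmonary artery. Members were taken by gene symbol, with earlier results of these data known. They are protein-coding genes whose symbol names an integrin α chain, an integrin β chain or a laminin α, β or γ chain. Each had more than 5 reads over all libraries. The rule found 37 genes, 26 of integrins (18 α and 8 β) and 11 of laminins, of 28157 genes tested. RNA was sequenced in 6 libraries of E13.5 embryos, each made from 3 OFTs pooled after genotyping, 18 OFTs in all. The labels put 3 libraries in a mutant group, heterozygous for *Notch1* and null for *Nos3* (*Notch1*+/-; *Nos3*-/-), and 3 in a wildtype group, whose embryos were littermates with both genes intact. Both alleles are knockouts carried by the whole embryo rather than by a chosen cell type, on a C57/BL6J background, and no other allele or treatment was given. The comparison asks which genes differed in RNA between these groups.

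Laminins are cross-shaped trimers of an α, a β and a γ chain that polymerise into the sheet of a basement membrane, and a cell cannot secrete a complete trimer without all 3 kinds of chain. Integrins are αβ pairs in the cell membrane that bind matrix outside the cell and, through talin and other adaptors, the actin cytoskeleton inside it. The β1 chain can pair with most α chains, and the α chain largely decides whether the pair binds laminin, collagen, or proteins with an RGD motif such as fibronectin. In the developing heart these genes act in the endothelium and its underlying matrix, in myocardium and in the mesenchyme of the cushions that form valves and septa.

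Depth was 34729103 to 44387490 counts per library, so that 3 counts, used here as the floor of detection, were worth 0.0675 to 0.0924 CPM, the count scaled to a common depth. The knocked-out genes gave mixed answers about the labels. *Notch1*, a receptor of cell-cell signalling, was at 74.3, 88.2 and 83.6 CPM in the libraries labelled wildtype and at 155, 161 and 139 CPM in those labelled mutant, which is not the direction of a heterozygous loss. *Nos3*, the endothelial nitric oxide synthase, was at 31.8, 47.2 and 48.1 CPM against 22.1, 22.0 and 20.4 CPM. Groups are therefore named by their labels throughout. On the first principal component of all genes (55.7% of the variance) wildtype replicate 1 lay at −7.08, within the range of the libraries labelled mutant (−31.4 to −3.55), while the other libraries labelled wildtype lay at 21.8 and 43.7. Myocardial, mesenchymal and endothelial markers were present in every library. The summed level of 12 myocardial markers was 33250 to 49360 CPM under the wildtype label and 22830 to 32830 CPM under the mutant label, and that of 11 mesenchymal markers was 4876 to 9413 CPM against 8812 to 11370 CPM. In pooled tissue, fewer cells of a type and less RNA per cell cannot be told apart.

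The sequence just upstream of the transcription start is shown for 4 members, *Itgb1* and *Lamb1* because they had the highest levels of their families among genes with a window here, and *Itga10* and *Itga11* because they are the collagen receptor genes with the largest differences between the groups. Each window holds the 150 bases from 210 to 61 before the start that RefSeq gives on GRCm38.p6, read 5′ to 3′ on the strand of the gene. Capitals mark matches, on either strand, to the core of the binding site of Rbpj (TGGGAA), the DNA-binding partner of Notch, to the GC box (GGGCGG) and to the CCAAT box.

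Itgb1 chr8:128685444-128685593 (+): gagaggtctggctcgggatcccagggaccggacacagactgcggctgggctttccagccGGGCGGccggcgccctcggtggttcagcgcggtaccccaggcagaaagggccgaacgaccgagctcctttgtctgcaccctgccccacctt
Lamb1 chr12:31265083-31265232 (+): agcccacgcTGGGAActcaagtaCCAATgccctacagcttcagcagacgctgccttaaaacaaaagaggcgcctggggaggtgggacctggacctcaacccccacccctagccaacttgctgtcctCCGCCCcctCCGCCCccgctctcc
Itga10 chr3:96645374-96645523 (+): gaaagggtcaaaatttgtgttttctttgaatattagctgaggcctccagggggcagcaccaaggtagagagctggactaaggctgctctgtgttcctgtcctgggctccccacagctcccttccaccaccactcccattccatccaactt
Itga11 chr9:62677645-62677794 (+): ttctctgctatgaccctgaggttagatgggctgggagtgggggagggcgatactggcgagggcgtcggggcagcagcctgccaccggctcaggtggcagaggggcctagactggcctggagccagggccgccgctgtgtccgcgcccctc

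The *Itgb1* window held a GC box. *Lamb1* held an Rbpj core, a CCAAT box and 2 GC boxes, none of which overlapped another, and the windows of *Itga10* and *Itga11* held none of these motifs. The RefSeq table gave 26 windows for 23 of the 37 genes. An Rbpj core was found in 3 of them (*Itga2b*, *Lamb1* and *Lamb3*) and in 13.49% of all 32851 windows, a GC box in 7 against 20.92% of all, and a CCAAT box in 3 against 22.75%. A TATA box (TATAAA) was found in 0 of the 26 windows and in 6.715% of all windows. These matches describe letters and were not tested as binding sites.

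Most of the subunit genes differed little between the labels. By edgeR's quasi-likelihood test, adjusted over all genes after Benjamini and Hochberg, 0 of the 37 genes reached an adjusted p of 0.05 or less, against 6 of all genes tested (0.0213%). At an unadjusted p under 0.05 there were 4 (10.8%), all higher under the mutant label, namely *Itga10*, *Itga11*, *Itgb4* and *Itgae*, where all genes gave 16.1%, 8.23% on the higher and 7.83% on the lower side. DESeq2's Wald test called 1 of the 37 genes, *Itga10*, and 2.66% of all genes, and limma-voom called 0. For 7 members, among them *Itga10*, *Itga11*, *Itgad*, *Itgae*, *Itgb5* and *Lamb2*, the libraries under one label lay wholly above or below the others (18.9%), while the background was 19.6%, so the share was close to that of genes in general. Among members with a mean of at least 1 CPM it was 5 of 31, beside 23.5% of such genes. The median log2 fold change, mutant label against wildtype label, was 0.14 for the 26 integrin genes and −0.01 for the 11 laminin genes, and that of all genes was 0.01. Precision was enough to bound most of them. For 29 of the 31 members with a mean of at least 1 CPM the 95% interval of the log2 fold change lay within 1 unit of 0, and the corresponding share of all such genes was 89.1%. The exceptions were *Itga10* and *Itgb4*. The count rested on a single library, since leaving out the wildtype replicate 1 library gave 4 called members, *Itga2*, *Itga8*, *Itga9* and *Itga10*, beside 9.45% of all genes, while leaving out any other library gave 0.

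**Figure D1:**
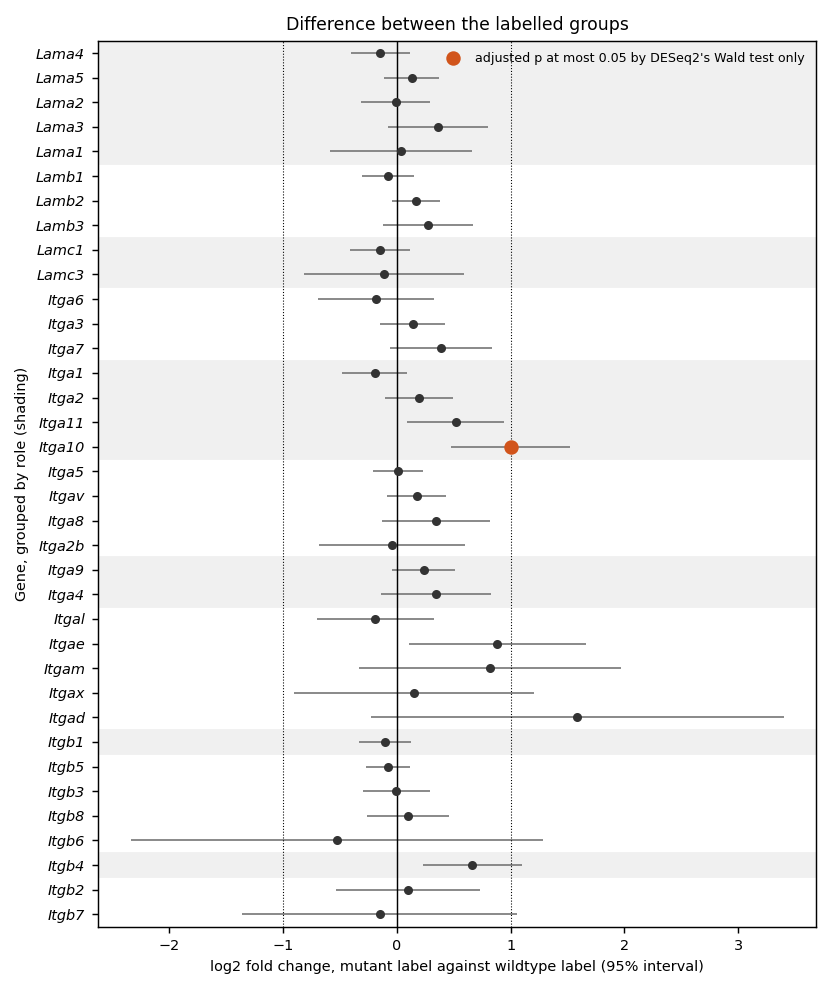
Log2 fold change of 36 of the 37 genes, mutant label against wildtype label, with its 95% interval from edgeR's fit (6 libraries), ordered by role (shading) and by level within a role. Dotted lines mark 1 log2 unit on either side of 0, and the coloured point is *Itga10* (log2 fold change 1.00), the only member called by DESeq2. The 10 laminin genes drawn lie between −0.15 and 0.36, and the widest intervals belong to *Itgad* and *Itgb6*, which had few counts.

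Levels were compared between genes as RPKM, which is CPM divided by the length of the exons in kilobases. *Itgb1*, the common partner of most α chains, had the highest level, 245 RPKM on average over the 6 libraries, and its lowest library (229 RPKM) was above the highest library of the next gene, *Lamc1* (89.7 RPKM). *Lamc1* averaged 79.0 RPKM and was in turn above *Lamb1* (48.8), *Itga5* (46.3) and *Itgb5* (42.4), whose neighbouring ranges overlapped. *Lama4* (33.1), *Lamb2* (23.8) and the pair *Itga9* (17.8) and *Itga6* (16.5) followed. From *Lama5* (9.18) down to *Itga2* (3.76), 9 genes formed a run in which each range overlapped the next. The top of the order thus held the laminin chains α4, β1 and γ1, which can form a trimer, and the integrin chains α5, β1 and β5. At the bottom, *Itgad*, *Itgae*, *Itgam*, *Itgax*, *Itgb6* and *Itgb7* had means below 1 CPM.

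**Figure D2:**
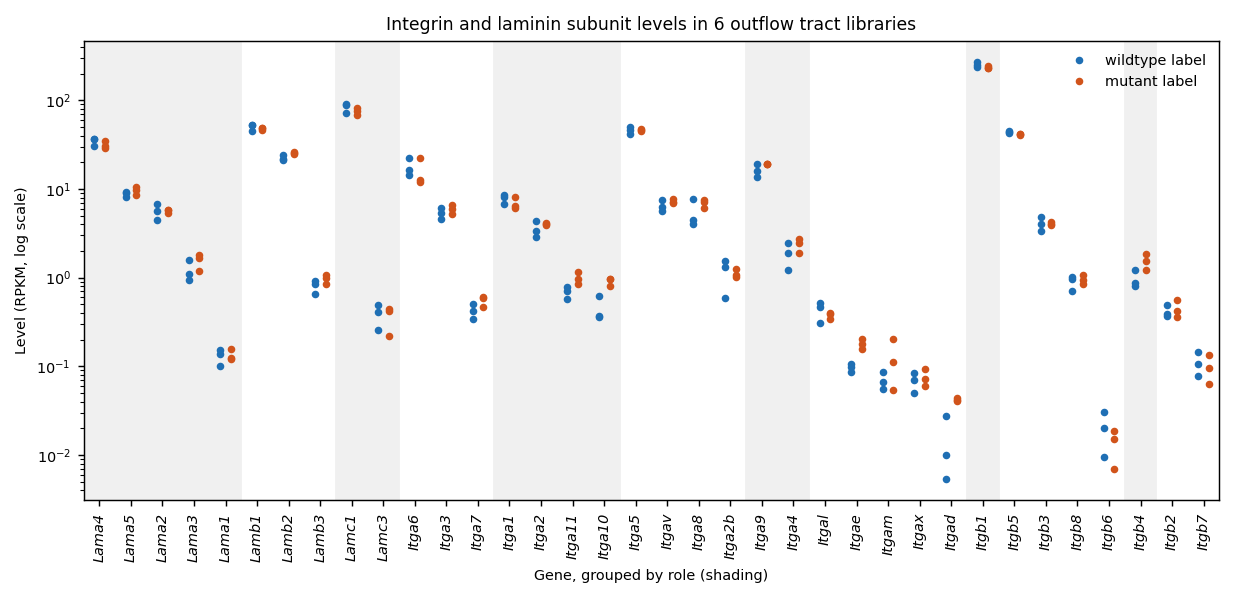
Level of 36 of the 37 genes in each of the 6 libraries (RPKM, log scale), wildtype label on the left and mutant label on the right of each position, genes grouped by role (shading) and ordered by level within a role. *Itgb1* averages 245 RPKM and *Lamc1* 79.0 RPKM, and for most genes the points of both labels lie over the same range.

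Among the laminin chains, *Lama4* (chr10:38965515-39110188 on mm10, + strand), the α chain of vascular and cardiac basement membranes, was at 445, 367 and 447 CPM in the libraries labelled wildtype and at 372, 348 and 418 CPM in those labelled mutant. *Lamb1* (chr12:31265234-31329644, + strand), the widespread β chain, was at 522, 447 and 522 CPM against 477, 455 and 482 CPM. *Lamc1* (chr1:153218922-153332786, − strand), the γ chain of most laminins, was at 724, 599 and 742 CPM against 621, 565 and 673 CPM. For all 3 genes the groups overlapped, and replicate 2 was the lowest library under each label. The log2 fold changes were −0.15 ± 0.12 (SE) for *Lama4*, −0.08 ± 0.10 for *Lamb1* and −0.15 ± 0.12 for *Lamc1*, with adjusted p of 0.571, 0.756 and 0.559. The 95% intervals ran from −0.40 to 0.11, from −0.31 to 0.15 and from −0.42 to 0.11, so that 1 log2 unit in either direction lay outside all 3.

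The other laminin α chains were at lower levels. *Lama5*, the α chain of many epithelial and mature vascular basement membranes, had a log2 fold change of 0.13 ± 0.11, and *Lama2*, the α chain of muscle, −0.01 ± 0.14. *Lama3*, an epithelial chain, ranged from 10.2 to 16.8 CPM under the wildtype label and from 12.8 to 19.3 CPM under the mutant label, with a log2 fold change of 0.36 ± 0.20. It was 0.59 without wildtype replicate 1 (not called) and −0.088 with the mean of the myocardial markers as a covariate, so its sign depended on the setting. *Lama1*, the chain of the earliest embryonic basement membranes, stood at a mean of 1.28 CPM.

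Groups that did not overlap were seen for *Lamb2*, with a small difference. *Lamb2*, the β chain of neuromuscular and glomerular laminins, was at 130, 132 and 149 CPM against 158, 153 and 149 CPM, the nearest libraries being 148.5 CPM and 149.0 CPM. Its log2 fold change was 0.17 ± 0.10 (adjusted p = 0.411), and its direction turned with a correction for GC content and gene length (−0.020). *Lamb3* and *Lamc3* overlapped, with 0.27 ± 0.18 and −0.11 ± 0.32.

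Composition within the laminin α and β classes was similar in all libraries. *Lama4* held 66.98% to 70.1% of the summed RPKM of the 5 α genes under the wildtype label and 62.9% to 68.9% under the mutant label. *Lamb1* held 70.3%, 66.8% and 67.8% of the β genes under the wildtype label and 64.0%, 63.7% and 65.7% under the mutant label. These β shares did not overlap, and the share of *Lamb2* was correspondingly 30.6% ± 1.9 (SD, n = 3) against 34.2% ± 0.92 (n = 3). With 3 libraries against 3, an exact permutation test cannot give a two-sided p under 0.1, and the shares were not otherwise tested.

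**Figure D3:**
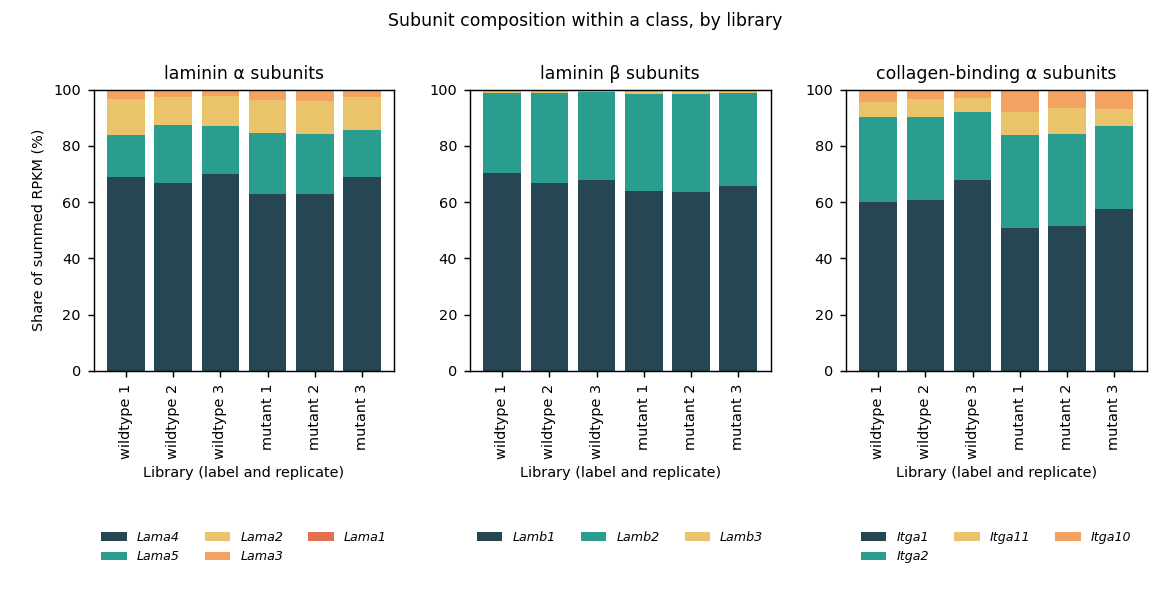
Share of the summed RPKM of a class (%) that each gene holds, 1 bar for each library, for laminin α and β genes and for the collagen-binding integrin α genes. *Lama4* and *Lamb1* are the largest part of every laminin bar, and the share of *Itga10* averages 3.57% under the wildtype label and 7.15% under the mutant label.

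The integrin β chains were dominated by *Itgb1* (chr8:128685654-128733200, + strand), described in full after its level was seen. It was at 1113, 975 and 1021 CPM in the libraries labelled wildtype and at 935, 943 and 1005 CPM in those labelled mutant. The groups overlapped, with a log2 fold change of −0.11 ± 0.10 and a 95% interval from −0.34 to 0.12 (adjusted p = 0.640). It held 82.3% to 84.5% of the summed RPKM of all β genes. The ratio of *Itgb1* to the summed RPKM of its α partners was 2.30, 2.39 and 2.12 under the wildtype label and 2.02, 2.03 and 1.998 under the mutant label. The ratios did not overlap, while the gene and the sum of its partners each overlapped, the sum being 99.9 to 119 RPKM against 114 to 123 RPKM. Several ratios of summed levels were computed, and this was not the only one without overlap. Of all genes tested, 19.6% had groups without overlap, and the ratio was not tested. It was computed on RPKM without a correction for GC content. With a correction for GC content and gene length the log2 fold change of *Itgb1* was −0.10. That of *Itga5*, the α chain with the highest level, was −0.14 with it and 0.01 without. The ratio was not computed with that correction.

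*Itgb5* (chr16:33829665-33949338, + strand), a partner of αv in vitronectin binding, was the second β chain by level. It was at 152, 158 and 154 CPM against 147.4, 147.5 and 144.5 CPM. Every library labelled mutant was lower, but the difference was small, −0.08 ± 0.09 on the log2 scale (adjusted p = 0.695). *Itgb3*, the β chain of the platelet and osteoclast receptors, had a log2 fold change of −0.00 ± 0.13, and *Itgb8*, a chain that takes part in activating latent Tgf-β, 0.10 ± 0.16. *Itgb6*, an epithelial chain, had at most 0.216 CPM in any library.

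Among the laminin-binding α chains, *Itga6* (chr2:71745616-71858416, + strand) had the highest level. It was at 146, 129 and 201 CPM under the wildtype label and at 113, 107 and 199 CPM under the mutant label. Replicate 3 was the highest library under each label, and mutant replicate 3 was the only library labelled mutant inside the wildtype range, the others lying below it (log2 fold change −0.18 ± 0.23, adjusted p = 0.742). The mean log2 CPM of the myocardial markers was highest in wildtype replicate 3 (11.37) and, among the libraries labelled mutant, in replicate 3 (10.85), against 10.7 and 10.87 in the other libraries labelled wildtype and 10.41 and 10.05 in the others labelled mutant. With that mean as a covariate the log2 fold change of *Itga6* became 0.33 (not called), so its sign depended on the setting. *Itga3*, the partner of β1 in epithelia and kidney, had 0.14 ± 0.13, and *Itga7*, the laminin receptor of muscle, 0.39 ± 0.20.

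The chains that bind RGD ligands were led by *Itga5* (chr15:103344286-103366763, − strand), the fibronectin receptor chain. It was at 226, 208 and 248 CPM against 236, 227 and 225 CPM. All libraries labelled mutant lay inside the range of those labelled wildtype, and the log2 fold change was 0.01 ± 0.10 with a 95% interval from −0.21 to 0.23. *Itgav*, which pairs with several β chains, had 0.17 ± 0.12, and *Itga8*, the nephronectin receptor chain, 0.35 ± 0.21 with a wildtype range of 29.4 to 57.4 CPM that covered the mutant range of 44.4 to 55.3 CPM. For *Itga8*, omitting wildtype replicate 1 gave a log2 fold change of 0.71, which was called (adjusted p = 0.0184 by edgeR, 0.0184 to 0.984 over all alternative settings), and a covariate for the mean of the myocardial markers gave 0.076. *Itga2b*, the platelet chain, ranged from 3.19 to 8.38 CPM under the wildtype label and from 5.55 to 6.82 CPM under the mutant label. The 9 platelet and megakaryocyte markers summed to 11.02 to 20.6 CPM against 9.82 to 14.3 CPM. Of these markers 4 were lower and 0 higher at an unadjusted p under 0.05 by edgeR (44.4%, beside 16.1% of all genes). Their median log2 fold change was −0.68, 6 of them had means below 1 CPM, and edgeR and DESeq2 called 0.

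Of the α4 and α9 class, whose members bind vascular and matrix ligands of their own, *Itga9* (chr9:118606690-118901003, + strand) was the higher. It was at 149, 104 and 124 CPM under the wildtype label and at 149, 149 and 146 CPM under the mutant label. Replicate 1 of the wildtype label lay with the mutant libraries and the other two lay below them. The log2 fold change was 0.23 ± 0.13 (adjusted p = 0.381). It was 0.37 and called without wildtype replicate 1 (adjusted p = 0.0371), and over all alternative settings its adjusted p ran from 0.0371 to 0.935. *Itga4*, the receptor chain for Vcam1 in the epicardium, had 0.34 ± 0.22, and 8.04% of its exon bases are shared with *Cerkl* on the opposite strand.

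The collagen-binding α chains held the only member called by any of the tools on all 6 libraries without a further term. *Itga10* (chr3:96645584-96664519, + strand), a collagen receptor chain best known from cartilage, was at 3.22, 1.93 and 1.88 CPM in the libraries labelled wildtype and at 4.95, 4.16 and 5.01 CPM in those labelled mutant. All 3 libraries labelled mutant were above all 3 labelled wildtype, and the counts behind the values were 143, 80 and 61 against 198, 156 and 189. The log2 fold change was 1.00 ± 0.24, with a 95% interval from 0.48 to 1.53. It was not called by edgeR (adjusted p = 0.181) and was called by DESeq2 (adjusted p = 0.0154). Over the settings tried its log2 fold change stayed between 0.87 and 1.31, its adjusted p lay between 0.00611 and 0.642, and it was called in 4 of 16, namely by DESeq2, with either of 2 fits with a replicate block, and without wildtype replicate 1. Of its exon bases, 33.5% are shared with *Gm42957*, a protein-coding model on the same strand, to which 2, 0 and 2 counts against 1, 6 and 3 were assigned. How the counting treated reads in the shared bases is not given in the sources used here, so the level of *Itga10* is uncertain.

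*Itga11* (chr9:62677826-62783982, + strand), the fibrillar collagen receptor chain of mesenchymal cells, was at 4.05, 3.66 and 2.93 CPM against 4.97, 5.90 and 4.38 CPM. Its groups did not overlap either, although the nearest libraries were 4.05 and 4.38 CPM. The log2 fold change was 0.51 ± 0.19 (unadjusted p = 0.0225, adjusted p = 0.252 by edgeR and 0.168 by DESeq2), and it was called in 0 of 16 alternative settings. *Itga1* (chr13:114953096-115101964, − strand), the main collagen-binding chain here, was at 159, 127 and 150 CPM against 113, 118 and 149 CPM. Its groups overlapped and its log2 fold change was −0.20 ± 0.13 (adjusted p = 0.480). *Itga2*, which binds fibrillar collagen, had 0.19 ± 0.14, and 0.37 without wildtype replicate 1, where it was called (adjusted p = 0.0456 by edgeR, 0.0456 to 0.988 over all alternative settings).

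Levels were also read as shares of the collagen-binding class. Shares of a fixed total must differ in opposite directions whenever they differ, and they were not tested. *Itga1* held 60.0%, 60.7% and 67.9% of the summed RPKM of the 4 genes under the wildtype label and 50.9%, 51.6% and 57.6% under the mutant label. *Itga10* held 4.35%, 3.31% and 3.05% against 7.98%, 6.53% and 6.93%. Neither set of shares overlapped between the labels, while those of *Itga2* (28.0% ± 3.2 against 31.6% ± 2.0, n = 3 each) and *Itga11* (5.56% ± 0.78 against 7.86% ± 1.6, n = 3 each) did. *Itga10* had the smallest share of the class in 5 of the 6 libraries, mutant replicate 3 being the exception.

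The mesenchymal markers differed in the same direction as *Itga10* and *Itga11*. Of 11 such markers, all had a log2 fold change above 0, 8 with an unadjusted p under 0.05, with a median of 0.57. For *Itga11* the order of the libraries was that of the marker sum within each label, with replicate 3 lowest and mutant replicate 2 highest. *Itga10* had the order of the marker sum under the wildtype label (3.22, 1.93 and 1.88 CPM). Under the mutant label *Itga10* did not, being lowest in replicate 2. Of the 12 myocardial markers 9 were lower at an unadjusted p under 0.05, with a median log2 fold change of −0.52. Of all genes tested, 8.23% were higher and 7.83% lower at that p. DESeq2 called 6 of the myocardial and 1 of the mesenchymal markers, beside 2.66% of all genes, and edgeR called 0. With the myocardial mean as a covariate the log2 fold change was 0.90 for *Itga10* and 0.19 for *Itga11*, neither of them called. The part of tissue composition in these differences was not tested further.

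**Figure D4:**
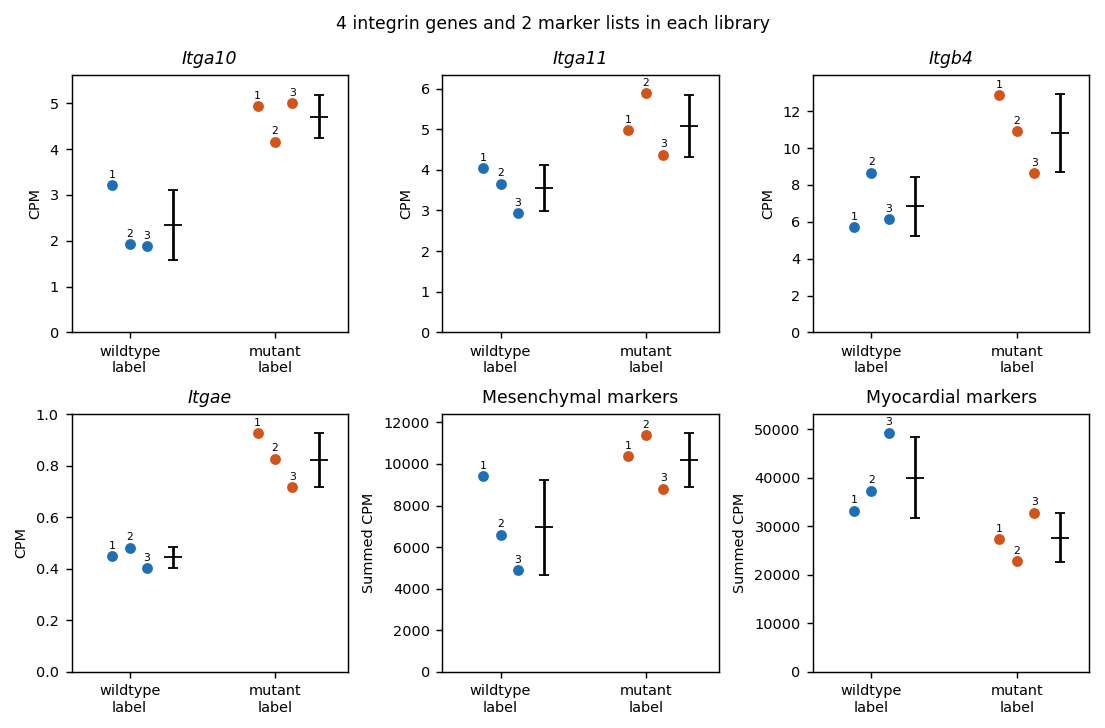
CPM of *Itga10*, *Itga11*, *Itgb4* and *Itgae*, and the summed CPM of 11 mesenchymal and 12 myocardial markers, in each library (points, numbered by replicate) with the mean and SD of each label (bars, n = 3). *Itga10*, *Itga11* and *Itgae* have no overlap between labels, whereas *Itgb4* has wildtype replicate 2 (8.67 CPM) beside mutant replicate 3 (8.65 CPM). The myocardial sums have no overlap. The mesenchymal sums overlap, with wildtype replicate 1 at 9413 CPM and mutant replicate 3 at 8812 CPM.

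*Itgb4* and *Itgae* were chosen for full description after their values were seen, since their unadjusted p was under 0.05. *Itgb4* (chr11:115974709-116008412, + strand), the β chain of hemidesmosomes and the partner of α6, was at 5.69, 8.67 and 6.13 CPM against 12.9, 10.9 and 8.65 CPM. The highest library labelled wildtype was just above the lowest labelled mutant. The log2 fold change was 0.66 ± 0.20 (unadjusted p = 0.00682, adjusted p = 0.203 by edgeR and 0.0512 by DESeq2), and of 16 alternative settings it was called in 1, a block on the replicate number. Corrected for the GC content and length of genes, the log2 fold change was 0.45. Of its exon bases 7.66% are shared with *B230344G16Rik* on the opposite strand, and reads of the pair cannot be told apart unless the counting used strand, which is not stated. Its partner *Itga6* overlapped between the labels, as given above, and 9 epithelial markers summed to 33.1 to 44.9 CPM against 28.8 to 33.7 CPM.

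Leukocyte integrin chains were at low levels. *Itgal* (chr7:127296260-127335138, + strand), the α chain of LFA-1, was at 2.05, 3.40 and 3.05 CPM under the wildtype label and at 2.27, 2.56 and 2.60 CPM under the mutant label. *Itgb2* (chr10:77530252-77565708, + strand), its β partner, was at 1.13, 1.20 and 1.51 CPM against 1.30, 1.09 and 1.70 CPM. Both overlapped between the labels, with log2 fold changes of −0.19 ± 0.23 and 0.10 ± 0.29. *Itgae*, the α chain of tissue-resident T cells, was at 0.450, 0.482 and 0.401 CPM against 0.925, 0.827 and 0.716 CPM, from 20, 20 and 13 counts against 37, 31 and 27. Its groups did not overlap, and the log2 fold change was 0.88 ± 0.35 (unadjusted p = 0.0302, adjusted p = 0.272). DESeq2 gave it no adjusted p, as its filter on low means left the gene out.

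The other myeloid and lymphoid chains were measured from a few counts. *Itgad* had 2, 1 and 4 counts against 8, 7 and 7, so that its groups did not overlap, and 2 of its wildtype libraries lay at or under the floor. Its log2 fold change had an interval from −0.23 to 3.40. *Itgam*, the Mac-1 chain, shares 68.7% of its exon bases with *Gm49368* and had 15, 18 and 9 counts against 11, 21 and 39. *Itgax* and *Itgb7* overlapped between the labels, at means of 0.347 and 0.287 CPM. The 11 macrophage and leukocyte markers summed to 136 to 207 CPM under the wildtype label and to 140 to 166 CPM under the mutant label. By edgeR 1 was higher and 1 lower at an unadjusted p under 0.05 (18.2%, beside 16.1% of all genes), and 0 were called. DESeq2 called 1, lower under the mutant label (log2 fold change −1.28), beside 2.66% of all genes.

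The genes that work with these subunits were read from 3 lists, in none of which limma-voom called a gene. Among 20 basement membrane partners and laminin receptors, edgeR called 0 and DESeq2 called 3, beside 2.66% of all genes, while 3 were higher and 3 lower at an unadjusted p under 0.05 (30%, beside 16.1% of all genes), and the median log2 fold change was 0.01. *Col15a1*, a basement membrane collagen, was at 41.4, 39.8 and 37.0 CPM against 50.5, 50.3 and 49.0 CPM, without overlap (0.34 ± 0.09, DESeq2 adjusted p = 0.0447). *Agrn*, a laminin-binding proteoglycan, had 0.43 ± 0.12 (DESeq2 adjusted p = 0.0256), and *Smoc1*, a matricellular protein, −0.73 ± 0.22 (DESeq2 adjusted p = 0.0436). *Col18a1* had 0.35 ± 0.12, and the laminin receptors *Bcam* and *Dag1* had −0.41 ± 0.15 and −0.26 ± 0.11, none of them called. The laminin linker *Nid1*, added for comparison after its value was seen, had 0.01 ± 0.10.

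Of 24 ligands of integrins other than laminins, 23 were measured and *Icam4* was not listed. EdgeR and DESeq2 called 0 of them, 6 were higher and 0 lower at an unadjusted p under 0.05 (26.1%, beside 8.23% higher and 7.83% lower of all genes), and the median log2 fold change was 0.38, with 14 above 0 and 9 below. The median of the 11 mesenchymal markers, all above 0, was 0.57, and their part in the values of the ligands was not tested. The genes with the smallest p on the higher side were *Thbs2* (0.45 ± 0.16), *Ccn2* (0.38 ± 0.14) and *Postn* (0.56 ± 0.22), a matrix protein of cushion mesenchyme that is also on the mesenchymal marker list. On the lower side they were *Mfge8* (−0.27 ± 0.13), *Vwf* (−0.47 ± 0.23) and *Icam1* (−0.59 ± 0.37), none under an unadjusted p of 0.05. Only *Thbs2*, 1 of the 23 genes, had labels without overlap, which is 4.35% beside a background of 19.6%.

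Among 30 adaptors and focal adhesion proteins, edgeR called 0 and DESeq2 4 (beside 2.66% of all genes), all higher under the mutant label, among them *Tns2*, *Pxn* and *Flna*. *Tns2*, a tensin that binds integrin tails, was at 48.4, 51.1 and 49.6 CPM against 63.7, 70.7 and 62.1 CPM, without overlap (0.40 ± 0.09, DESeq2 adjusted p = 0.0174). *Pxn* (0.35 ± 0.10), the scaffold paxillin, was also called by DESeq2 (adjusted p = 0.0485), as was *Flna* (0.58 ± 0.19, adjusted p = 0.0454), an actin crosslinker named after its value was seen. On the lower side *Itgb1bp2*, the muscle protein melusin, had −0.36 ± 0.12, the talin gene *Tln2* −0.29 ± 0.10 and *Lims1* −0.18 ± 0.10, none of them called. At an unadjusted p under 0.05 there were 6 higher and 2 lower (26.7%), beside the background of 16.1%.

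**Figure D5:**
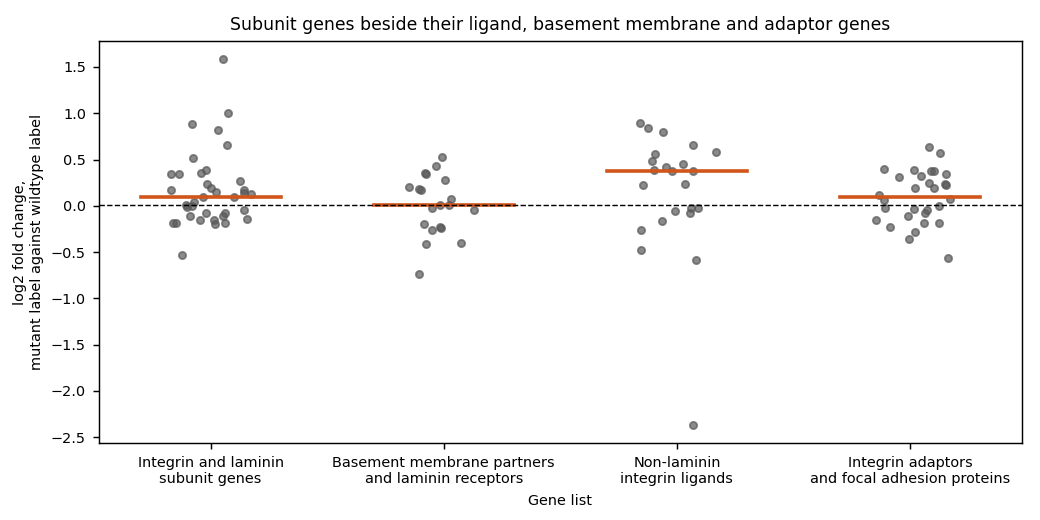
Log2 fold change, mutant label against wildtype label, of the 37 subunit genes and of 20 basement membrane partners, 23 ligands and 30 adaptors (points, 1 gene each), with the median of each list (bar) and of all genes tested (dashed line, 0.01). The medians are 0.10, 0.01, 0.38 and 0.09, and the lowest point among the ligands is *Vtn* (log2 fold change −2.37 at a mean of 0.328 CPM).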

How the data were processed

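RNA of E13.5 OFTs was sequenced in 6 libraries, 3 for each label. Per the labels and the study's methods, the authors made stranded libraries depleted of ribosomal RNA, aligned 50 bp paired-end reads to mm10 with TopHat2 2.1.0 and counted reads on exons with GenomicAlignments. The deposited values are these counts per gene, whole numbers with no normalization. The annotation release, strand setting and overlap mode of the counting are not given in the sources used here. The table lists 28777 genes, the smallest sum over the libraries being 5, and the 620 genes with that sum were left out, as the study did.

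Counts of the other 28157 genes were scaled by TMM and tested with edgeR 4.0.16 in R 4.3.3 (glmQLFTest, a 2-group design), p-values being adjusted by the Benjamini-Hochberg method and called at 0.05 or less. The biological coefficient of variation was 0.17. DESeq2 1.42.0 (also the study's tool, as DESeq2 1.26.0) and voom of limma 3.58.1 were alternatives. CPM and RPKM use TMM-scaled depth, and RPKM the exon length of GENCODE M21, which holds 28723 of the identifiers and lacks 54. Exon overlaps come from the same annotation, and upstream windows from RefSeq. Intervals are 95% intervals of the quasi-likelihood fit, and floors of 3 counts cover counting error only. On simulated counts of 28157 genes, edgeR recovered 99 of 100 genes changed by 1 log2 unit and 100 of 100 changed by 2, with 8 false calls. The changed genes all had a higher mean CPM than *Itga10*, *Itga11* and *Itgb4*. Their dispersion followed the fitted trend, and no library was simulated to lie apart from its group. The recovery therefore does not carry over to genes at lower levels or to these libraries.

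Replicates are separate pools of OFTs, not single embryos. The library numbers of wildtype replicates 2 and 3 are swapped between sample titles and descriptions, and the titles were followed. The members and gene lists were chosen with earlier results of these data known. Full values were given for members called by edgeR or DESeq2, for members of at least 1 CPM with an unadjusted p under 0.05 and no overlap, and for the highest gene by RPKM in each role group of several genes. For each list of partner genes, up to 3 genes in each direction with the smallest p and a mean of at least 1 CPM were named. *Itgb1*, *Itgb4*, *Itgae*, *Itgad*, *Itgam*, *Lamb2*, *Nid1*, *Flna* and *Vtn* were added after their values were seen. Some genes that enter the counts and medians are not reported by name or drawn singly here. Alternatives were other tests, scalings, filters and thresholds, a replicate block, a correction for GC content and length, a myocardial covariate and the omission of each library.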

Additional observations from a re-analysis of the deposited data

How the results depend on the processing

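With edgeR, 6 genes of all tested, 0 of the 37 members and 0 partner genes were called. DESeq2 called 749, 1 (*Itga10*) and 7, and an adjusted p of 0.01 left 2 genes. The labels do not say that libraries with the same replicate number are paired. Deviations from the group means of such libraries correlated by 0.096, 0.159 and 0.42. Wildtype replicate 1 correlated best with mutant replicate 2 (0.277). Correlations of so few libraries cannot decide whether the replicate numbers pair them. A replicate block on these numbers called 1577 genes, 2 members (*Itgb4* and *Itga10*) and 17 partner genes, and the block with the correction for GC content and length called 2219, 7 and 26. The 7 members included *Itga10* and *Itga4*, higher under the mutant label, and *Lama4*, *Lamc1*, *Itga6* and *Itga1*, lower. A replicate block on the numbers in the sample descriptions, chosen after seeing the data, called 83 genes and 0 members. Without single libraries the number of genes called ran from 1 to 2593, of members from 0 to 4 and of partner genes from 0 to 22, the highest each time without wildtype replicate 1.

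The integrin median (0.14) was 0.25 with library size only, where the median of all genes was 0.11, 0.073 with the GC and length correction, 0.073 with that and the replicate block, 0.11 with the myocardial covariate and 0.0998 to 0.2006 without single libraries. The laminin median (−0.01) was 0.087, −0.11 and −0.10 in the first 3 of these and −0.1133 to 0.0694 without single libraries, so its sign depended on the setting. Ordered by CPM instead of RPKM, *Itgb1*, *Lamc1* and *Lamb1* stayed the highest.

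Of the fold changes of members under the alternatives, 49 reversed, none of them called, 14 became called and 527 did neither. With the GC and length correction *Itga5* was −0.14, *Itga3* −0.036, *Lama5* −0.11, *Lama1* −0.10 and *Lamb2* −0.020, and with the replicate block added they were −0.14, −0.030, −0.10, −0.10 and −0.018. With library size only *Lamb1* was 0.026, *Lama2* 0.087, *Itgb3* 0.094, *Itgb5* 0.025 and *Itga2b* 0.073. With limma-voom *Lama2* was 0.0077, *Itgb3* 0.00056 and *Itga2b* 0.11, with the replicate block 0.0074, 0.0096 and 0.039, and with filterByExpr *Itgb3* was 0.0021. With the myocardial covariate *Lama3* was −0.088, *Itgb6* 0.14, *Itga4* −0.17, *Itga6* 0.33, *Itgax* −0.14 and *Itga2b* 0.40. Without single libraries 11 members reversed, with ranges of −0.092 to 0.23 for *Itgb2*, −0.051 to 0.077 for *Itga5*, −0.45 to 0.085 for *Itgb7*, −0.15 to 0.15 for *Lama2*, −0.13 to 0.14 for *Itgb3*, −0.039 to 0.20 for *Itgb8*, −0.32 to 0.15 for *Lamc3*, −0.53 to 0.023 for *Itga6*, −0.033 to 0.34 for *Itgax*, −0.11 to 0.16 for *Lama1* and −0.36 to 0.22 for *Itga2b*. The cause of these changes was not tested.

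Depth limits *Itgad*, *Itgae*, *Itgam*, *Itgax*, *Itgb6* and *Itgb7*, which had means below 1 CPM.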

Other observations

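Markers of cell types other than those above were also read. Of 10 endothelial markers 1 was higher and 0 lower at an unadjusted p under 0.05 by edgeR, with a median log2 fold change of −0.05 and a summed level of 1000 to 1335 CPM under the wildtype label and 1092 to 1208 CPM under the mutant label. Of 9 vascular smooth muscle markers 2 were higher and 3 lower, with sums of 2347 to 3024 CPM against 2099 to 2373 CPM. Erythroid markers, which come from blood left in the tissue, summed to 5407 to 11900 CPM against 6166 to 6317 CPM, 7 of 10 being lower at an unadjusted p under 0.05. The 8 epicardial markers (0 higher and 0 lower) summed to 253 to 412 CPM against 275 to 338 CPM. Of 7 measured neural crest and Schwann cell markers 2 were higher, with sums of 27.8 to 43.8 CPM against 41.3 to 50.8 CPM. Of all genes tested, 8.23% were higher and 7.83% lower at an unadjusted p under 0.05. EdgeR called 0 genes of any of these lists, while DESeq2 called 1 smooth muscle and 3 erythroid markers, beside 2.66% of all genes.

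*Ilk*, whose protein joins β1 tails to parvin and Pinch, was counted at a mean of 0.879 CPM, whereas its partner *Parva* was at 175 CPM and *Lims1* at 150 CPM. Bases that *Ilk* shares with other genes were not examined, and how the counting treated such reads is not given. Its low count is therefore not evidence of low expression.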
